A study of Rattus norvegicus with 18 samples.

Results

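The genes described here are 10 members of the circadian clock: Arntl (also called Bmal1), Clock, Per1, Per2, Per3, Cry2, Nr1d1, Nr1d2, Dbp and Tef. They were chosen by name, and every probe carrying one of these symbols was taken: 12 of the 41012 probes, for 10 of the 15502 named genes on the array. RNA came from brain cortex of male Crl:CD(SD)BR rats weighing 250 to 280 g and was measured on 18 arrays with 1 colour, 3 for each of 6 groups. The groups are sham-operated rats, whose treatment is labelled none, ischemic rats that received saline, and ischemic rats that received erythropoietin (EPO), each taken 2 h or 6 h after the operation. Middle cerebral artery occlusion (MCAO) stopped blood flow to much of the lateral cortex, and EPO is the hormone of red cell formation, studied in this series for its effect on ischemic gene expression. The ischemic rats received saline or EPO and the sham rats are labelled as untreated, so ischemia and the saline treatment cannot be told apart in the comparison with sham. The EPO dose and the clock hour of operation or sampling are not given in the sources used here. The labels number the replicates and do not state that each array is a separate animal, so the p-values measure the spread between these arrays, which may in part be technical.

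The molecular clock is a feedback loop of transcription. The proteins of Arntl and Clock bind E-box sequences as a pair and switch on the Period (Per) and Cryptochrome (Cry) genes, whose proteins return to the nucleus and repress that pair. The pair also drives Nr1d1 and Nr1d2, which encode the REV-ERB nuclear receptors that repress Arntl at ROR elements, and Dbp, a transcription factor that acts with its relative Tef at D-box sequences. The cortex has such a clock, and Per1 is also known as an early-response gene of neurons, with a promoter that answers cAMP signalling and glucocorticoids.

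The sequences before a transcript start of 4 members are shown because they hold the letters of the elements that join the loop together. Each is the 250 bases before a transcript start in RefSeq (rat build GRCr8), written 5′ to 3′ on the gene's strand, with the matched elements in capitals. For Arntl (chr1:176766078-176766327, plus strand) the capitals mark TAGGTTA and TAGGTCA, matches to the core of the ROR element. For Per2 (chr9:99496994-99497243, minus strand) they mark the D-box TTATGTAA and the E-prime box CACGTT. For Nr1d1 (the start at chr10:84229455-84229704, minus strand) and Tef (chr7:115206577-115206826, plus strand) they mark the E-box CACGTG.
Arntl: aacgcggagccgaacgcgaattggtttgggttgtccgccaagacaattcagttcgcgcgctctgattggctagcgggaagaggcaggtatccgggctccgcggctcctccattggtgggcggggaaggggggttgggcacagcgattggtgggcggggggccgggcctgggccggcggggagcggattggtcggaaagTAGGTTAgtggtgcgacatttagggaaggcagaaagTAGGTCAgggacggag
Per2: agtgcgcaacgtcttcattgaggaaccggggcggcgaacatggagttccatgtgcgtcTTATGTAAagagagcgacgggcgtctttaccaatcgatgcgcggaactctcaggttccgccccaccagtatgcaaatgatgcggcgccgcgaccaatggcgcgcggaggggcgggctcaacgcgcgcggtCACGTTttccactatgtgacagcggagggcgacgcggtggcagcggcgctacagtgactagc
Nr1d1: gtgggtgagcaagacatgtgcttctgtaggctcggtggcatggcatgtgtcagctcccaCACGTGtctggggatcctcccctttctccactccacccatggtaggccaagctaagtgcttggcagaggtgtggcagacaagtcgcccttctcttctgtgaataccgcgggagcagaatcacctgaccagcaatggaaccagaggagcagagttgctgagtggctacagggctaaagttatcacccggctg
Tef: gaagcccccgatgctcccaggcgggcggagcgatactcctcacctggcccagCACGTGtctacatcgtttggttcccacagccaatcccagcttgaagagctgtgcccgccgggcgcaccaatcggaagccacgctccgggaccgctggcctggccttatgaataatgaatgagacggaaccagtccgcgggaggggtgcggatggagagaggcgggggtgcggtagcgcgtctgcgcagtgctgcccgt
Searched on both strands in 33469 rat promoters of this length, the E-box CACGTG was in 5.59% and was found in Nr1d1 and Tef among the members. CACGTT was in 4.07% of all promoters and was found in Per2, Cry2 and the other start of Nr1d1. The D-box TTATGTAA, in 0.828%, was found in Per2, 192 bases before the start. TAGGTCA was in 2.26% and its looser form TAGGTNA, which includes it, in 7.55%, and the members' matches were those of Arntl, 52 and 16 bases before the start. The cAMP response element TGACGTCA, in 1.59%, was in none of the 12 member promoters. The windows of Per1 (chr10:54304126-54304375) and Tef lay inside their genes, which start at 54299002 and 115197180. The printed Nr1d1 window also lay inside its gene (84224599 to 84231812), as did those of Per3 and another start of Clock. For Nr1d1 and Clock a window at the outer start was searched as well. The windows of Arntl and Per2 crossed the outer ends of their genes, so the bases before those ends were searched in part. For Per1, Tef and Per3 the bases before the outer starts were not searched. These matches describe letters only, and the arrays did not measure binding.

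All 10 genes were measured well enough to test. Levels are on the log2 scale, with the 75th percentile of each array set to 0. Differences are log2 differences with the standard error of a linear model over all 18 arrays (limma), and a gene is called higher or lower where its p-value, adjusted over 28637 probes, is under 0.05. Where a gene has several probes, the probe of highest mean signal stands for it. Levels on such arrays can be compared between groups for 1 probe but not between probes. In bulk cortex, fewer cells of a type and less RNA per cell cannot be told apart.

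The arrays were not of equal quality. The signal of spiked-in viral transcripts rose more steeply with their amount on 6 arrays (slopes 0.914 to 0.941) than on the other 12 (0.788 to 0.866), and the 6 had 61.5% to 66.4% of probes well above background against 68.6% to 80.6%. Sham at 2 h held 0 steep arrays, saline-treated ischemia at 6 h held 2, and every other group held 1. Among the members, steep arrays differed from the others of their group by -0.80 for Clock, by 0.20 for Per2 and by -0.11 to 0.09 for the other 8. Every called difference below kept its sign without these arrays, a fit that leaves 1 saline-treated array at 6 h, assumed to vary like the other groups.

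The comparison of ischemia with sham asked which clock genes the occlusion changes. At 2 h, 3 of the 10 were lower in saline-treated ischemia, namely Tef, Dbp and Nr1d2, and 0 were higher, where 0.314% of the 12429 genes tested were lower and 1.32% higher. At 6 h, 3 were lower, namely Dbp, Per2 and Nr1d2, and 0 higher, where 6.90% of all genes were lower and 6.18% higher. That background depends on the scaling: quantile normalization put 4.61% lower and 6.49% higher, and no scaling put 1.55% lower and 3.91% higher. The median difference over the 10 members was -0.14 at 2 h and -0.33 at 6 h, and over all genes tested it was -0.04 and -0.09. Groups of 3 arrays that do not overlap were common. Against sham this held for 17.8% of all genes at 2 h and 35.5% at 6 h with saline, and for 21.2% and 35.3% with EPO. Of the 10 members it held for 4 and 5 with saline and for 5 and 6 with EPO. In EPO-treated ischemia, set against the same sham arrays, Tef alone was lower at 2 h (background 0.298% lower). At 6 h Dbp, Nr1d2, Per2 and Nr1d1 were lower (background 10.8% lower, or 4.63% without scaling), and no member was higher at either time (background 1.54% and 8.22%, or 0.611% and 4.84% without scaling).

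**Figure D1:**
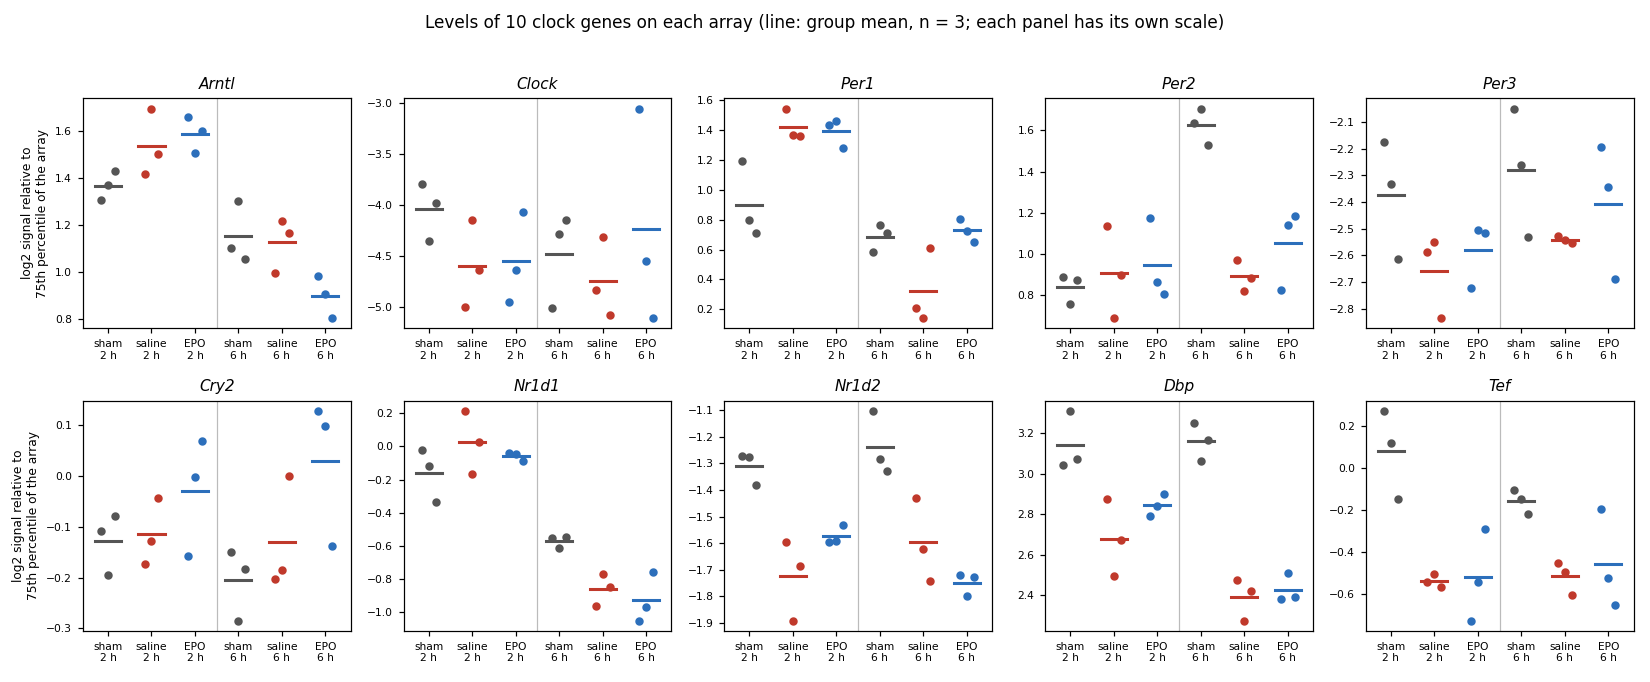
Level of each of the 10 clock genes on every array, on the log2 scale with each array's 75th percentile at 0, by group (grey sham, red saline-treated ischemia, blue EPO-treated ischemia) at 2 h and 6 h, with the group mean as a line. Dbp lay at 3.04 to 3.31 on the 6 sham arrays and at 2.27 to 2.90 on the 12 ischemic arrays, and Per2 was at 1.53 to 1.71 in sham at 6 h and at 1.19 or below elsewhere.

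The comparison of 6 h with 2 h within each treatment asked how the members moved between the sampling times. In sham, Per2 was higher at 6 h and no member was lower, against a background of 0.434% higher and 0.201% lower (0.0885% and 0.0402% without scaling). In saline-treated ischemia, Per1, Nr1d1 and Arntl were lower at 6 h, where 4.96% of all genes were lower and 4.46% higher (3.13% and 4.76% with quantile normalization, 0.764% and 3.95% without scaling). In EPO-treated ischemia, Arntl, Nr1d1, Per1 and Dbp were lower at 6 h, where 9.78% of all genes were lower and 5.66% higher (1.1% and 4.28% without scaling). No member was higher at 6 h in either ischemic treatment. The groups at 2 h and 6 h did not overlap for 20.1% of all genes in sham, 31.1% with saline and 32% with EPO. Of the 10 members this held for 3, 4 and 5. The comparisons that follow share arrays with each other, so their values are given side by side and their agreement is not read as a result.

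**Figure D2:**
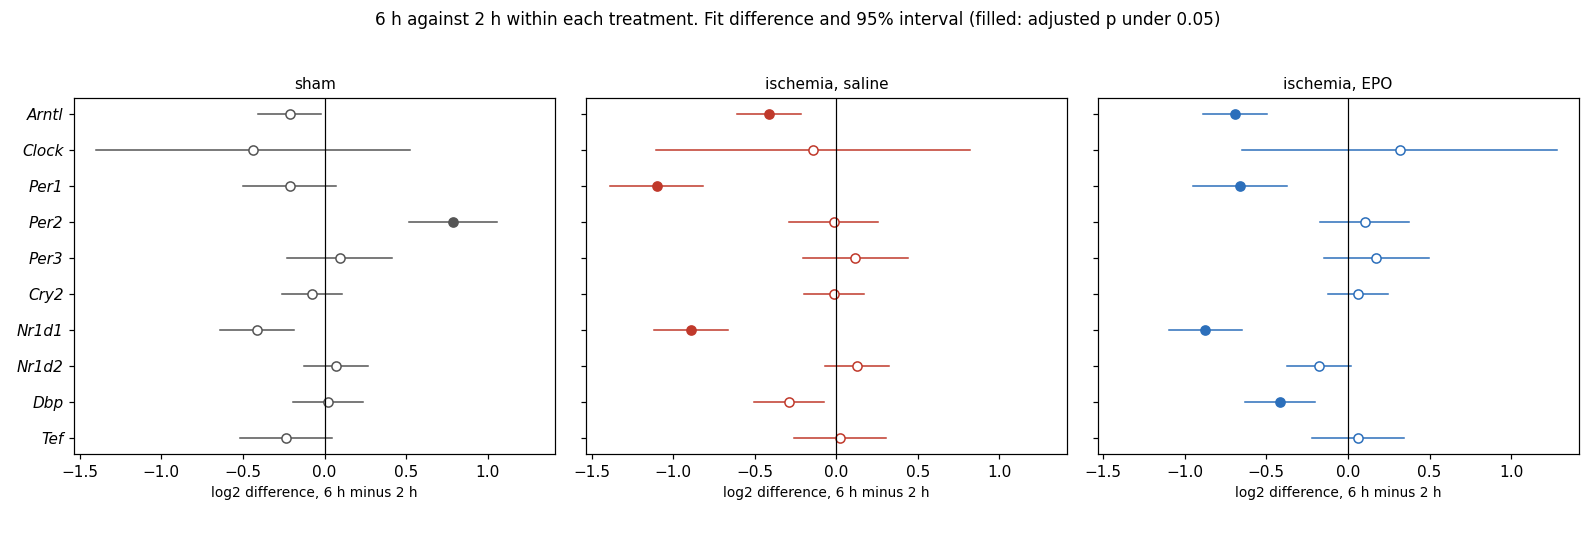
Difference between 6 h and 2 h (log2, 6 h minus 2 h) for each clock gene within sham, saline-treated ischemia and EPO-treated ischemia. Points are fitted differences, bars are 95% intervals and filled points have an adjusted p under 0.05: Per2 at 0.79 in sham, Per1, Nr1d1 and Arntl in saline-treated ischemia, and these and Dbp in EPO-treated ischemia.

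Among the activators, Arntl (probe A_44_P214873) encodes the E-box binding protein without which the clock stops. It was at 1.3, 1.37 and 1.43 in sham at 2 h and at 1.1, 1.3 and 1.06 in sham at 6 h. In saline-treated ischemia it was at 1.42, 1.70 and 1.5 at 2 h and at 0.99, 1.22 and 1.17 at 6 h. In EPO-treated ischemia it was at 1.66, 1.51 and 1.6 at 2 h and at 0.98, 0.90 and 0.80 at 6 h. The 3 EPO-treated arrays at 6 h were the lowest of all 18, and within both ischemic treatments the ranges at 2 h and 6 h did not overlap. Arntl fell by 0.41 between the times in saline-treated ischemia (SE 0.09, adjusted p = 0.0138) and by 0.69 in EPO-treated ischemia (SE 0.09, adjusted p = 0.000421). In sham the difference was -0.21 ± 0.09, which did not pass (adjusted p = 0.475). Against sham Arntl did not pass at either time, at 0.17 ± 0.09 and -0.03 ± 0.09 with saline. With EPO it was at 0.22 ± 0.09 at 2 h (adjusted p = 0.331) and at -0.26 ± 0.09 at 6 h (adjusted p = 0.0721). The EPO and sham groups did not overlap at either time, as for 21.2% and 35.3% of all genes. The 6 h difference with EPO was called in 2 of 20 alternative fits, with slide as a random block and with a variance trend. The test of whether the saline-treated and sham differences over time were unequal did not pass either (-0.20 ± 0.13, adjusted p = 0.64, limma). The call in saline-treated ischemia was lost without saline replicate 2 at 2 h (-0.33, adjusted p = 0.0568), without saline replicate 1 at 6 h (-0.35, adjusted p = 0.0656), without scaling (-0.30, adjusted p = 0.357) and without the 6 steep arrays (-0.38, adjusted p = 0.416). The call in EPO-treated ischemia held in all 20 alternative fits, with differences from -0.74 to -0.59.

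Clock (probe A_43_P15473), the partner of Arntl, was read by a dim probe, well above background on 13 of 18 arrays. Its level ran from -5.11 to -3.05 over the arrays, its group means from -4.74 to -4.04, and the group SDs from 0.28 to 1.07. No comparison called it. The standard error of a difference was 0.45, and the 95% interval for ischemia with saline against sham ran from -1.52 to 0.40 at 2 h and from -1.23 to 0.70 at 6 h. Changes as large as those called in the other members lie within these intervals and were not detectable for Clock here.

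Per1 (probe A_44_P114034), the Period gene that responds fastest to signals from outside the clock, was at 1.19, 0.80 and 0.71 in sham at 2 h. All 3 saline-treated arrays at 2 h (1.54, 1.36 and 1.36) and all 3 EPO-treated arrays (1.43, 1.46 and 1.28) lay above every sham array. The differences from sham were 0.52 ± 0.13 with saline and 0.49 ± 0.13 with EPO, and neither passed (adjusted p = 0.0877 and 0.111). Without sham replicate 1, the highest of the sham arrays, Per1 passed as higher in both (0.67, adjusted p = 0.0193, and 0.64, adjusted p = 0.0271). At 6 h sham was at 0.59, 0.76 and 0.71, saline-treated ischemia at 0.21, 0.14 and 0.61, and EPO-treated ischemia at 0.80, 0.73 and 0.65. The saline group overlapped sham through replicate 3 alone, and its difference of -0.36 ± 0.13 did not pass (adjusted p = 0.102), whereas without that array Per1 passed as lower (-0.51, adjusted p = 0.0303). Between 2 h and 6 h Per1 fell by 1.1 in saline-treated ischemia, 2.14-fold (SE 0.13, adjusted p = 0.0003), and by 0.66 in EPO-treated ischemia (SE 0.13, adjusted p = 0.00607). The sham arrays differed by -0.21 ± 0.13 (adjusted p = 0.67). Both calls over time were lost without the 6 steep arrays (-1.22, adjusted p = 0.0867 with saline, and -0.61, adjusted p = 0.0707 with EPO), and the call with EPO also without scaling (-0.56, adjusted p = 0.0523).

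In Per1 the difference between saline-treated ischemia and sham was positive at 2 h and negative at 6 h. The test of that change, the interaction of ischemia with time, gave -0.89 ± 0.19 (adjusted p = 0.0356), and the same test gave -0.80 ± 0.18 for Per2 (adjusted p = 0.0448). Across all genes 0.788% passed it as lower and 1.13% as higher (0.137% and 0.917% without scaling, 0.595% and 1.46% with normexp background correction). Per1 passed in 8 and Per2 in 10 of 26 alternative fits, with values of -1.05 to -0.76 and -0.91 to -0.68. Left out 1 at a time, Per1 lost its call without 10 of the 12 arrays concerned and kept it without sham replicate 1 at 2 h and saline replicate 3 at 6 h. Per2 lost it without 11 of the 12 and kept it without saline replicate 2 at 2 h. The adjusted p in these fits reached 0.0945 for Per1 and 0.107 for Per2. For EPO-treated ischemia no member passed this test (background 1.98% lower and 1.88% higher, or 0.105% and 1.05% without scaling), with Per2 at -0.68 ± 0.18 (adjusted p = 0.0593, but -0.75 and 0.0466 without EPO replicate 3 at 6 h), Arntl at -0.48 ± 0.13 (adjusted p = 0.0643) and Per1 at -0.45 ± 0.19 (adjusted p = 0.238).

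Per2 (probe A_42_P708593), a core repressor of the loop, stood apart in sham at 6 h. Sham was at 0.89, 0.75 and 0.87 at 2 h and at 1.64, 1.71 and 1.53 at 6 h. Saline-treated ischemia was at 1.13, 0.69 and 0.90 at 2 h and at 0.97, 0.82 and 0.88 at 6 h, and EPO-treated ischemia at 1.17, 0.86 and 0.80 and then at 0.82, 1.14 and 1.19. The 3 sham arrays at 6 h exceeded the other 15, which ran together from 0.69 to 1.19 with group means between 0.84 and 1.05. Per2 rose by 0.79 ± 0.13 from 2 h to 6 h in sham, 1.73-fold (adjusted p = 0.0159). In ischemia the difference between the times was -0.02 ± 0.13 with saline and 0.10 ± 0.13 with EPO, with 95% intervals of -0.29 to 0.26 and -0.17 to 0.38. At 6 h Per2 was lower than sham by 0.73 with saline (-0.73 ± 0.13, adjusted p = 0.00248) and by 0.58 with EPO (-0.58 ± 0.13, adjusted p = 0.00719), while at 2 h the differences were 0.07 ± 0.13 and 0.11 ± 0.13.

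The rise of Per2 in sham was called in 12 of 20 alternative fits, with differences of 0.72 to 0.83 over all 20. It lost its call without any 1 of the 6 sham arrays apart from replicate 3 at 6 h, with adjusted p values of 0.0533 to 0.0827, and without the 6 steep arrays (0.78, adjusted p = 0.136). On the slide that held both sham groups the difference was 0.66. The lower Per2 with saline than in sham at 6 h was called in 19 of 20, the exception being the fit without steep arrays (-0.80). The lower Per2 with EPO than in sham at 6 h was called in 19 of 20, the exception being the fit of these 2 groups alone (-0.58, adjusted p = 0.0683).

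Per3 (probe A_44_P196198), a further Period gene, and Cry2 (probe A_43_P13175), a cryptochrome that closes the loop with the Period proteins, were called in no comparison. Per3 ran from -2.61 to -2.05 on the sham arrays and from -2.83 to -2.19 on the ischemic arrays, which overlap. Its differences from sham were -0.28 ± 0.15 and -0.26 ± 0.15 with saline at 2 h and 6 h. Its second probe (A_43_P16143) was dimmer, at -4.24 to -2.99, and was not called either, and another (A_44_P407318) was above background on no array. Cry2 ran from -0.28 to 0.13 over all 18 arrays. Its largest difference was 0.23 ± 0.09 for EPO-treated ischemia against sham at 6 h, with an adjusted p of 0.0809. The groups did not overlap there, as for 35.3% of all genes. Cry2 passed as higher without EPO replicate 3 (0.32, adjusted p = 0.0221) and with normexp background correction (0.28, adjusted p = 0.0433). Without the 6 steep arrays its difference was 0.35.

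Nr1d1 (probe A_44_P175041) encodes REV-ERB alpha, the main repressor of Arntl. It was at -0.02, -0.12 and -0.34 in sham at 2 h and at -0.56, -0.61 and -0.55 at 6 h. Saline-treated ischemia was at 0.21, -0.17 and 0.03 and then at -0.97, -0.77 and -0.85, and EPO-treated ischemia at -0.04, -0.04 and -0.09 and then at -1.05, -0.97 and -0.76. All 9 arrays at 6 h lay below all 9 at 2 h, and at 6 h all ischemic arrays lay below all sham arrays. Between the times Nr1d1 fell by 0.89 with saline (SE 0.10, adjusted p = 0.00025) and by 0.87 with EPO (SE 0.10, adjusted p = 0.000237), about 1.85-fold and 1.83-fold. The difference in sham was -0.41 ± 0.10 and did not pass (adjusted p = 0.128), nor did the test of whether the saline-treated and sham differences were unequal (-0.48 ± 0.15, adjusted p = 0.159). Against sham at 6 h it was lower with EPO (-0.36 ± 0.10, adjusted p = 0.0332) and did not pass with saline (-0.29 ± 0.10, adjusted p = 0.0952). The call with EPO held in 8 of 20 alternative fits. It was lost without any 1 of the 3 sham arrays or EPO replicates 1 or 2 (adjusted p from 0.064 to 0.129), and in 7 other fits, among them normexp background correction (-0.25, adjusted p = 0.113), the replicate block (-0.36, adjusted p = 0.054) and no steep arrays (-0.43, adjusted p = 0.0704). The fall over time was called in 19 of 20 alternative fits with saline, the exception being the fit without steep arrays (-0.71, adjusted p = 0.153), and in 20 of 20 with EPO.

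Nr1d2 (probe A_44_P395572) encodes REV-ERB beta, a related receptor of the same sites. It was at -1.27, -1.28 and -1.38 in sham at 2 h and at -1.10, -1.28 and -1.33 in sham at 6 h, with no difference past the test between them (0.07 ± 0.09). Saline-treated ischemia was at -1.60, -1.89 and -1.69 at 2 h and at -1.43, -1.62 and -1.74 at 6 h, and EPO-treated ischemia at -1.60, -1.59 and -1.53 and then at -1.72, -1.80 and -1.73. Every ischemic array lay below every sham array. Nr1d2 fell with saline by 0.42 at 2 h (-0.42 ± 0.09, adjusted p = 0.0417) and by 0.36 at 6 h (-0.36 ± 0.09, adjusted p = 0.022), and with EPO by 0.51 at 6 h (-0.51 ± 0.09, adjusted p = 0.00189). With EPO at 2 h the difference was -0.26 ± 0.09 (adjusted p = 0.231). The call at 2 h held in 7 of 20 alternative fits and, of the 6 arrays, survived the loss of saline replicate 1 alone, with adjusted p values up to 0.147 without the others. The call with saline at 6 h held in 12 of 20 and was lost without sham replicate 1 (-0.29, adjusted p = 0.0886), saline replicate 2 (-0.35, adjusted p = 0.0687) or saline replicate 3 (-0.29, adjusted p = 0.103). It was also lost with quantile normalization (-0.28, adjusted p = 0.258), without scaling (-0.31, adjusted p = 0.18), without the steep arrays (-0.32, adjusted p = 0.317) and in 2 other fits. The call with EPO at 6 h held in 20 of 20.

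Dbp (probe A_44_P280898), a direct output of the Arntl and Clock pair that drives many rhythmic genes, was at 3.04, 3.31 and 3.07 in sham at 2 h and at 3.25, 3.06 and 3.17 in sham at 6 h. In saline-treated ischemia it was at 2.87, 2.49 and 2.67 at 2 h and at 2.48, 2.27 and 2.42 at 6 h. In EPO-treated ischemia it was at 2.79, 2.84 and 2.90 at 2 h and at 2.38, 2.51 and 2.39 at 6 h. The sham groups overlapped each other and no ischemic array reached them, and at each time the saline and EPO groups overlapped. Dbp fell below sham with saline at 2 h by 0.46, 1.38-fold (SE 0.10, adjusted p = 0.0389), and at 6 h by 0.77, 1.71-fold (SE 0.10, adjusted p = 0.000292). With EPO it fell below sham by 0.73 at 6 h, 1.66-fold (SE 0.10, adjusted p = 0.000279), and was at -0.30 ± 0.10 at 2 h (adjusted p = 0.212).

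From 2 h to 6 h Dbp differed by 0.02 ± 0.10 in sham and by -0.29 ± 0.10 with saline (adjusted p = 0.099, but -0.38 and 0.041 without saline replicate 2 at 2 h), and fell by 0.42 with EPO (SE 0.10, adjusted p = 0.015). The tests of whether these differences were unequal to that in sham did not pass in limma. They gave -0.31 ± 0.14 with saline (adjusted p = 0.387) and -0.44 ± 0.14 with EPO (adjusted p = 0.119). The call at 2 h against sham held in 8 of 20 alternative fits and was lost without sham replicates 2 or 3 or saline replicates 2 or 3 (adjusted p from 0.0754 to 0.154). At 6 h the call was lost with saline only without the 6 steep arrays (-0.84, adjusted p = 0.0565) and held with EPO in 20 of 20. The fall over time with EPO held in 14 of 20. It was lost without EPO replicate 3 at 2 h (-0.39, adjusted p = 0.054), EPO replicate 1 at 6 h (-0.39, adjusted p = 0.058) or the steep arrays (-0.43, adjusted p = 0.084), without scaling (-0.31, adjusted p = 0.227), with slide as a fixed block (-0.42, adjusted p = 0.0544) and with the groups alone (-0.42, adjusted p = 0.0889).

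Tef (probe A_43_P15280), a relative of Dbp that binds the same D-box, was at 0.27, 0.12 and -0.15 in sham at 2 h. The saline-treated arrays at 2 h were at -0.54, -0.51 and -0.57 and the EPO-treated arrays at -0.73, -0.54 and -0.29, all below sham. At 6 h sham was at -0.11, -0.15 and -0.22, saline-treated ischemia at -0.45, -0.50 and -0.60, and EPO-treated ischemia at -0.20, -0.52 and -0.65, of which replicate 1 overlapped sham. Tef fell at 2 h by 0.62 with saline, 1.54-fold (SE 0.13, adjusted p = 0.0351), and by 0.60 with EPO (SE 0.13, adjusted p = 0.0391). At 6 h the differences of -0.36 ± 0.13 with saline and -0.30 ± 0.13 with EPO did not pass (adjusted p = 0.0994 and 0.149), and without the overlapping EPO replicate 1 Tef passed as lower with EPO (-0.43, adjusted p = 0.0466). The tests of a change between the times in the difference from sham did not pass in limma. They gave 0.26 ± 0.18 with saline (adjusted p = 0.694) and 0.30 ± 0.18 with EPO (adjusted p = 0.441). The calls at 2 h held in 10 and 8 of 20 alternative fits. With saline the call was lost without any 1 of the 6 arrays apart from sham replicate 3 (adjusted p from 0.0848 to 0.13), and with EPO without sham replicates 1 or 2 or EPO replicates 1 or 2 (adjusted p from 0.133 to 0.155). On the 1 slide that held a sham and an EPO-treated array of 2 h, Tef differed by -0.14, whereas on the 3 slides with sham and saline it differed by -0.81 to -0.42.

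**Figure D3:**
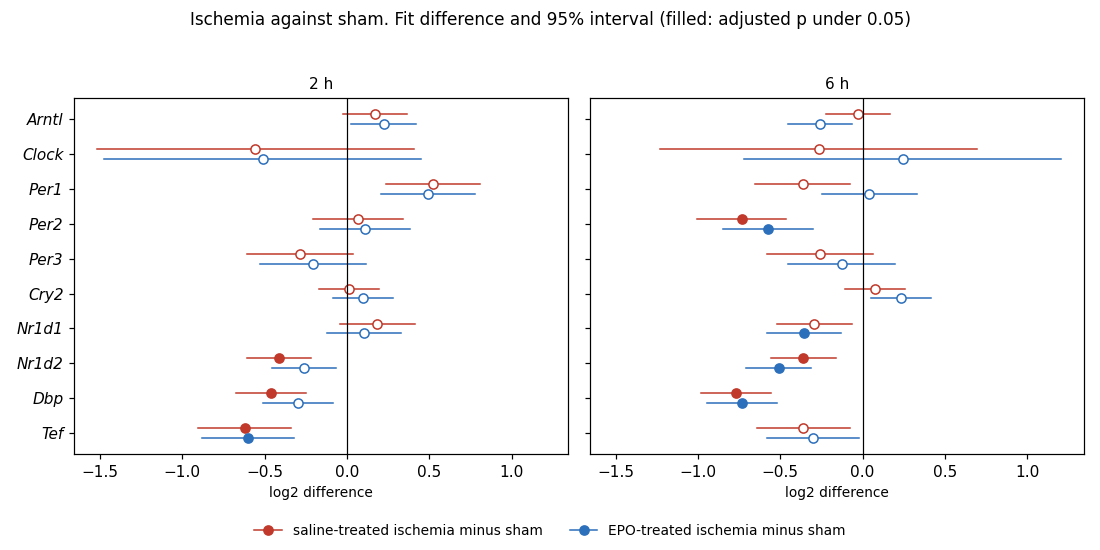
Difference from sham (log2) of each clock gene at 2 h and 6 h, for saline-treated (red) and EPO-treated ischemia (blue), which share the same sham arrays. Points are fitted differences, bars are 95% intervals and filled points have an adjusted p under 0.05, among them Dbp at -0.77 and -0.73 at 6 h and Tef at -0.62 and -0.60 at 2 h.

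EPO against saline within ischemia, the comparison that isolates the drug, called 0 of the 10 members and 0 of the 12429 genes at 2 h and again at 6 h (limma, background 0%). At an unadjusted p under 0.05 there were 154 genes and 0 members at 2 h, and 508 genes and 2 members, Per1 and Arntl, at 6 h. At 6 h the 3 EPO-treated arrays had more Per1 than the 3 saline-treated arrays (0.65 to 0.80 against 0.14 to 0.61), a difference of 0.41 ± 0.13 that did not pass (adjusted p = 0.778, limma). They had less Arntl (0.80 to 0.98 against 0.99 to 1.22), a difference of -0.23 ± 0.09 that did not pass either (adjusted p = 0.778, limma). At 6 h these groups did not overlap for 8.51% of all genes. For the other members apart from Clock, the differences lay between -0.08 and 0.17 at 2 h and between -0.15 and 0.16 at 6 h. The 95% interval for Dbp was -0.05 to 0.38 at 2 h and -0.18 to 0.25 at 6 h, and for Per2 -0.23 to 0.31 and -0.11 to 0.43. The interaction of EPO with time called 0 members and 0 genes (limma), with 3 members, Per1, Nr1d2 and Arntl, and 294 genes at an unadjusted p under 0.05.

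**Figure D4:**
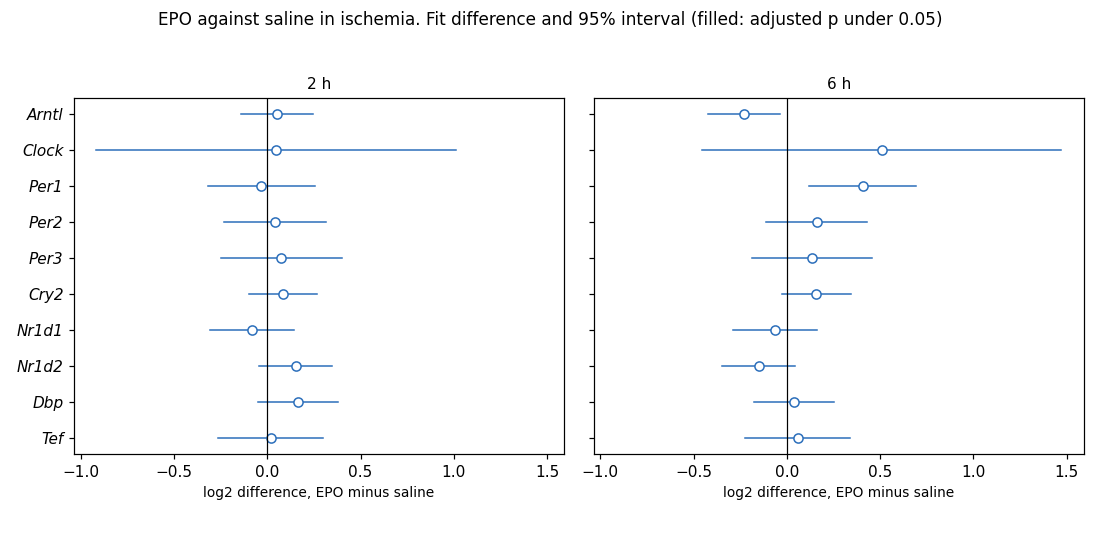
Difference between EPO-treated and saline-treated ischemia (log2, EPO minus saline) for each clock gene at 2 h and 6 h, with 95% intervals; no point is filled, since none has an adjusted p under 0.05. Per1 at 0.41 and Arntl at -0.23 at 6 h have intervals that leave out 0.

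Of 20 other genes of the clock network, 17 were found on the array and tested. At 2 h 1 was higher and 0 lower in saline-treated ischemia, and at 6 h 4 were higher and 1 lower, where 1.32% of all genes were higher and 0.314% lower at 2 h and 6.18% and 6.90% at 6 h. The medians over the list were -0.08 and -0.09, beside -0.04 and -0.09 over all genes tested. Nfil3 (probe A_44_P201028) encodes a repressor that binds the same D-box as Dbp and Tef. It was at -1.26 to -0.92 in sham and 0.00 to 0.42 in saline-treated ischemia at 2 h, and at -1.77 to -1.46 and -0.35 to 0.07 at 6 h. Nfil3 rose by 1.34 ± 0.13 (adjusted p = 0.000119) and 1.44 ± 0.13 (adjusted p = 2.34e-05), with no overlap, while Dbp was lower at both times. With EPO it was 1.3 ± 0.13 and 1.90 ± 0.13 above sham, and EPO exceeded saline at 6 h by 0.45 ± 0.13 without passing (adjusted p = 0.778, limma).

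Cry1 (probe A_44_P374708), the cryptochrome whose RNA peaks late in the cycle, was at -0.06 to 0.24 in sham at 2 h and 0.38 to 0.79 at 6 h, a difference of 0.49 ± 0.11 that did not pass (adjusted p = 0.0673). In saline-treated ischemia it was at -0.10 to 0.13 and then at 0.92 to 0.97, and rose by 0.93 ± 0.11 (adjusted p = 0.000228). At 6 h it was above sham by 0.36 ± 0.11 (adjusted p = 0.045). Nampt, the enzyme of NAD synthesis that the clock drives, rose above sham at 6 h by 0.45 ± 0.08 (adjusted p = 0.00214) and Csnk1d, a kinase of the Period proteins, by 0.23 ± 0.07 (adjusted p = 0.0449). Usp2, a deubiquitinase with a rhythm in many tissues, fell below sham at 6 h by 0.41 (SE 0.07, adjusted p = 0.00337) after a difference of 0.23 ± 0.07 at 2 h that did not pass, and its interaction of ischemia with time was -0.63 ± 0.10 (adjusted p = 0.00861). The rises of Cry1 and Csnk1d above sham at 6 h held in 10 and 7 of 20 alternative fits and were lost without any 1 of the 6 arrays apart from sham replicate 1 (adjusted p from 0.0975 to 0.18 for Cry1 and from 0.0758 to 0.175 for Csnk1d). Those of Nfil3 held in 19 of 20 at 2 h and 20 of 20 at 6 h. Without the 6 steep arrays Nampt was at 0.50 (adjusted p = 0.19) and Usp2 at -0.40 (adjusted p = 0.194) against sham at 6 h, and neither passed. The interaction of Usp2 was lost without these arrays (-0.57, adjusted p = 0.386) and without scaling (-0.51, adjusted p = 0.113). None of the 17 was called in sham between 2 h and 6 h or for EPO against saline.

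**Figure D5:**
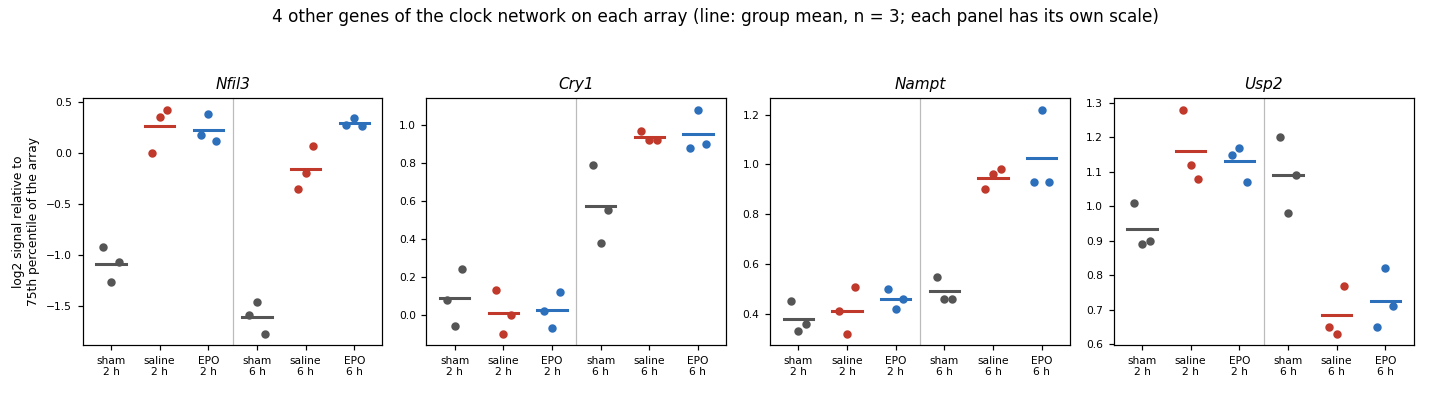
Level of Nfil3, Cry1, Nampt and Usp2 on every array, on the log2 scale with each array's 75th percentile at 0, by group, with the group mean as a line. Nfil3 was at -0.35 or above on all ischemic arrays and at -0.92 or below on all sham arrays, and in each treatment the Cry1 levels at 6 h lay above those at 2 h.

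Genes that respond to 2 of the signals known to reach Per1, cAMP or neuronal activity and glucocorticoids, were read on the same arrays. Of 9 tested targets of CREB and neuronal activity, 8 were higher in saline-treated ischemia at 2 h (background 1.32% higher). Their median was 1.61 against -0.04 over all genes. Among the 8 were Nr4a2 at 1.20 ± 0.09, Dusp1 at 1.76 ± 0.14 and Fos at 3.76 ± 0.31. At 6 h 5 were higher with saline (median 0.91, background 6.18% higher) and 9 with EPO (median 1.39, background 8.22% higher). The medians over all genes were -0.09 and -0.02. Between the times 0 were called in sham (median -0.37, background 0.434% higher and 0.201% lower). In saline-treated ischemia 7 fell (median -1.21, background 4.96% lower) and with EPO 4 fell (median -0.53, background 9.78% lower). The mean level of the list was 0.22 to 0.67 in sham, 2.18 to 2.30 with saline and 1.99 to 2.25 with EPO at 2 h, and 0.06 to 0.23, 0.96 to 1.33 and 1.45 to 1.93 at 6 h. Of 8 tested glucocorticoid response genes, 1 was higher with saline at 2 h, Errfi1 at 0.70 ± 0.09 (background 1.32% higher), while the list median was -0.09. At 6 h 3 were higher and 1 lower, with Errfi1 at 0.75 ± 0.09, Cdkn1a at 1.21 ± 0.21 and Sult1a1 at -0.85 ± 0.18. The list median there was -0.21 (background 6.18% higher and 6.90% lower). With EPO at 6 h 2 of the 8 were higher and 3 lower (median -0.19, background 8.22% and 10.8%). In sham 2 were lower at 6 h than at 2 h, Sgk1 at -0.99 ± 0.12 and Errfi1 at -0.70 ± 0.09 (list median 0.02, background 0.201% lower). The part of these signals in the clock genes' values was not tested.

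Markers of cell types were read on the same arrays. The mean level of 6 neuronal markers was 2.84 to 2.97 on the sham arrays, well above background, as the cortex label requires. At 2 h no marker of any cell type list was called in saline-treated ischemia, and none was called in sham between the times. The 2 choroid plexus markers tested had medians of -2.36 and -2.09 in these comparisons and varied widely within groups. Their mean level was -0.68 to 2.49 in sham and -3.00 to 1.35 with saline at 2 h, and -3.38 to 1.56 in sham at 6 h. At 6 h with saline, where 6.90% of all genes were lower and 6.18% higher (1.55% and 3.91% without scaling), 3 of 6 neuronal markers were lower, Snap25 at -0.24, Syt1 at -0.27 and Neurod6 at -0.81, and the list's mean level was 2.61 to 2.71 against 2.91 to 2.97 in sham. Of 5 endothelial markers 3 were lower (mean level -1.53 to -1.37 against -1.15 to -0.83), and of 5 microglial markers 2 were lower and 1 higher (0.01 to 0.26 against 0.35 to 0.58). Of 3 neutrophil markers 2 were higher (-1.78 to -1.65 against -3.90 to -3.04), and of 7 markers of striatal neurons 2 were higher (0.74 to 0.98 against 0.05 to 0.54). The striatal list was also at 0.30 to 0.92 in saline-treated ischemia and -0.02 to 0.64 in sham at 2 h. With EPO at 6 h, where 10.8% of all genes were lower and 8.22% higher, 4 of 6 neuronal markers were lower than in sham (mean level 2.47 to 2.67), 3 of 5 endothelial and 2 of 5 microglial markers were lower, and 5 of 7 striatal markers (0.71 to 1.24) and 2 of 3 neutrophil markers were higher. From 2 h to 6 h with EPO, 4 of 6 neuronal and 4 of 5 microglial markers fell (background 9.78% lower), and with saline 2 of 6 and 3 of 5 fell (background 4.96%). The part of cell makeup in the clock genes' differences was not tested.

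Among themselves the members fell into patterns across the 6 group means, given here as descriptions. Nr1d1 and Arntl varied together over the 6 group means (Pearson r = 0.95) and opposite to each other among arrays of the same group (r = -0.53 over 18 arrays after removing group means). Within groups Arntl was also at -0.61 with Dbp and at -0.61 with Nr1d2. Clock, read by a dim probe, was at -0.72 with Per2 and at 0.65 with Tef within groups. Per1 and Nr1d1 varied together as well (0.88 over group means, 0.33 within groups), as did Dbp and Nr1d2 (0.87 and 0.58). Tef and Per3 were close both over group means (0.76) and within groups (0.77). Tef and Nr1d2 were at 0.85 over group means and 0.36 within groups. Per1 and Arntl were at 0.82 and -0.08, and Dbp and Tef at 0.79 and 0.06. Over the 12 arrays of shallow spike-in slope, r was 0.83 for Nr1d1 and Arntl, 0.72 for Per1 and Nr1d1, 0.87 for Dbp and Nr1d2 and 0.63 for Tef and Per3. All these points share arrays and their scaling, and regulation of 1 member by another was not tested.

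Outside the list, the genes whose levels followed a member most closely over the 18 arrays were ranked by Pearson's r among 12429 genes. Closest to Dbp were Tmem204 (0.942), Camta2 (0.928), Chmp7 (0.920) and Clasp2 (0.918), and over the 12 shallow arrays these had r between 0.902 and 0.943. Closest to Per1 were Prdm8 (0.912), Ccdc184 (0.892), Nr4a3 (0.877), Hps4 (0.862) and Tmem74b (0.858), with 0.760 to 0.891 over the shallow arrays. Nr4a3 is an immediate-early nuclear receptor. Closest to Arntl were Pnma2 (0.876), Lhfpl5 (0.868), Cadm2 (0.863), Entpd5 (0.862) and Eepd1 (0.846), with 0.794 to 0.909 over the shallow arrays.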

How the data were processed

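The authors deposited, per the file headers, 1 scanner file per array written by Agilent Feature Extraction 9.1.1.1, with a background-subtracted intensity in linear units and quality marks for each spot. Their deposited value table holds log2 values that equal the mean log2 processed signal with no scaling between arrays (largest difference 5.3e-14).

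Spots marked as outliers were dropped, spots of a probe were averaged on the log2 scale, and the array's 75th percentile over spots was subtracted. A probe was tested where all 3 arrays of some group read it well above background (28637 probes), and 345 probes lacking a value on some array were dropped. Names came from the current annotation of rat genes by accession, symbol or synonym. A model of 6 group means (limma 3.58.1 in R 4.3.3, moderated two-sided tests with 12 residual degrees of freedom) gave 9 comparisons and 3 interactions, adjusted by Benjamini-Hochberg at 0.05. The fit was tested on simulated data. With 3 arrays a group, the number of arrays limits precision: the median standard error of a difference was 0.13.

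The clock genes were named in full, other genes by lists and limits on p. A gene that the naming rule reaches is not reported here. The members, lists and tests were chosen with earlier results of these data known. Alternatives, run for the 10 members and the other clock genes, were the background correction, scaling, filter, slide, spike-in slope class, replicate block, variance trend, arrays in the fit and each array left out. The percentile over probes was added after seeing the data. Same-number arrays were checked for pairing: only EPO and saline at 2 h had every pair correlated above 0.1 (0.887, 0.654 and 0.635), and a block there also called 0 probes in limma (373 at an unadjusted p under 0.05, against 388 without it). Replicate 1 was the steep array of both these groups (slopes 0.938 and 0.941), so pairing and the shared slope class cannot be told apart there.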

Additional observations from a re-analysis of the deposited data

Results flagged for a closer look

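The difference between saline-treated ischemia and sham changed from 2 h to 6 h, by the test of the change itself, for 2 clock genes. Across all genes tested 0.788% passed this test as lower and 1.13% as higher. For Per1 the saline-minus-sham difference was 0.52 at 2 h and -0.36 at 6 h, a change of -0.89 (SE 0.19, adjusted p = 0.0356). Neither of these 2 Per1 differences passed on its own (limma, adjusted p = 0.0877 and 0.102). For Per2 it was 0.07 and -0.73, a change of -0.80 (SE 0.18, adjusted p = 0.0448). In Per2 the saline-treated arrays stayed between 0.69 and 1.13 at both times while the sham arrays went from 0.75 to 0.89 at 2 h to 1.53 to 1.71 at 6 h. In Per1 the sham arrays were at 0.71 to 1.19 and then 0.59 to 0.76, and the saline-treated arrays at 1.36 to 1.54 and then 0.14 to 0.61. Both calls were lost in most fits that left out 1 array, with adjusted p values up to 0.0945 and 0.107. Of 26 alternative fits, the call held in 8 for Per1 and in 10 for Per2.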

How the results depend on the processing

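No called difference of a clock gene changed sign in any alternative, and of 432 values for called differences 304 stayed past the threshold and 128 did not. For saline at 2 h, 3 members became 0 without scaling, without a filter, without the 6 steep arrays and with the 2 groups alone, and 1 with slide as a fixed block, with the replicate block and without the 2 arrays whose title numbers stand apart. For EPO-treated ischemia at 2 h, 1 became 0 in all 7 of these settings and with the slope class as a block. For the interaction of ischemia with time, 2 became 1 with quantile normalization, without scaling and with the groups alone, and 0 without a filter, with slide as a fixed block, with the replicate block, without the 2 arrays and without the steep arrays. Without the steep arrays, saline at 6 h went from 3 to 0, sham over time from 1 to 0, saline over time from 3 to 0 and EPO over time from 4 to 2. Sham over time was also 0 with slide as a fixed block and with the groups alone, EPO over time 2 without scaling and with the groups alone, and EPO-treated ischemia at 6 h 2 in place of 4 with the groups alone. For EPO-treated ischemia by time, 0 became 2 with probes above background on all arrays, with the slope class as a block and with a variance trend, and 1 with slide as a random block. Leaving out 1 array gave 0 to 2 for saline at 2 h, 2 to 3 at 6 h and over time, 0 to 1 for EPO-treated ischemia at 2 h, for sham over time and for both interactions with ischemia, 3 to 5 for EPO-treated ischemia at 6 h, 3 to 4 over time, and 0 for EPO against saline. The fits with fewer arrays or groups have fewer degrees of freedom, and otherwise the cause was not tested. The replicate block changed no other count past 1.5 times. The labels do not state a pairing, and only for EPO and saline at 2 h was every same-number pair correlated above 0.1. Leaving out scaling moved the median of all genes by up to 0.13, in the interaction of ischemia with time, and by -0.12 for EPO-treated ischemia at 2 h, by 0.11 for saline and for EPO over time and by 0.12 for EPO-treated ischemia by time. Clock, dim on part of the arrays, is limited by signal over background.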
